A study of Mus musculus with 10 samples.

Results

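The 82 genes described here encode the proteins of the cytosolic ribosome in mouse leukaemic progenitor cells. They are the protein-coding genes of a table of 52636 genes whose symbol begins with Rpl or Rps and has the form of a ribosomal protein name, paralogs such as Rpl22l1 included. Of the 82, 31 encode proteins of the small (40S) subunit, 48 proteins of the large (60S) subunit, and 3 (Rplp0, Rplp1 and Rplp2) the acidic stalk of the large subunit. The rule itself uses no measured value, though the set was chosen with earlier results of these data known.

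The cells belong to the DIN model, in which mouse fetal liver cells carried MSCV retroviral vectors for DNMT3A R882H (with dsRed), IDH2 R140Q (with GFP) and NRAS G12D (with the tetracycline transactivator tTA), all of them AML-associated mutations. The DNMT3A R882H vector answers to tTA and is switched off by doxycycline. The other vectors are not regulated, so every group carried IDH2 R140Q and NRAS G12D. Frozen leukaemia cells from mice that had fallen ill were transplanted into Ptprca recipients, which took normal food and water (vector on) or food and water with doxycycline (vector off) for 5 or 14 days, and cKit+/Cd11b- cells were sorted from bone marrow and spleen. Day 14 off has 4 libraries; day 14 on, day 5 off and day 5 on have 2 apiece. The labels do not tell marrow from spleen, nor say whether each library is a separate mouse, and an action of doxycycline itself cannot be told apart from loss of the mutant protein.

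The ribosome is built in the nucleolus from ribosomal RNA, transcribed mainly by RNA polymerase I, and from ribosomal proteins made in the cytoplasm and imported, with the help of a large set of assembly factors. The mRNAs of ribosomal proteins begin with a run of pyrimidines at the cap, the TOP motif, through which mTORC1 and LARP1 control their translation, and their levels usually move together. In blood, loss of a single ribosomal protein gene causes Diamond-Blackfan anaemia, a failure of red cell production.

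Reads were QuantSeq 3′ tags, single-end, so each count marks a transcript end and levels are compared between libraries and not between genes. Totals ran from 9292644 to 14340624 counts per library. Tags of the mouse gene Dnmt3a do not check a vector that carries its own construct, and ran from 31.9 to 38.0 CPM (depth-scaled counts) at day 14 off and from 50.6 to 75.8 CPM in the other 6 libraries. Of the markers of the sort, Kit was detected in every library, at 30.9 to 36.4 CPM at day 14 off and 88.9 to 98.1 at day 14 on, and Itgam (Cd11b) was at most 21.9 CPM in any library. No marker gene of the other blood lineages that were listed was at 0 in all libraries. In bulk RNA, fewer cells of a type and less RNA per cell cannot be told apart.

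Of the 82 members, 79 passed the filter on low counts, and their identity and total abundance come first. Rpl10l, a testis-type copy of Rpl10, had 0 counts in every library. Rpl3l, known from muscle, reached at most 7 counts in a library, and Rpl39l, known from testis, at most 4. The 79 other members were 31 of 31 in the small subunit, 45 of 48 in the large subunit and 3 of 3 in the stalk. Chromosome 7 held 14 of the 82 members, chromosome 17 held 8 and chromosome 11 held 7, with the rest spread over the genome and 4 on the X (Rpl10, Rpl36a, Rpl39 and Rps4x).

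To show runs of pyrimidines near the start, the 30 bases around the RefSeq transcription start are given for members that the comparisons below turn on. The windows are from GRCm38.p6, on the gene strand, with 15 bases before the start and 15 from it on. Lower case is used throughout, and capitals mark runs of at least 6 pyrimidines at any position of the window. A marked run is therefore not by itself a TOP motif, and those of Rps25 and Rps27l lie wholly before the annotated start.
Rpl7a (chr2:26910792-26910821, plus strand): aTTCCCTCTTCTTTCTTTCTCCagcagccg
Rpl14 (chr9:120571502-120571531, plus strand): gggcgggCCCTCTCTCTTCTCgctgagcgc
Rpl22l1 (chr3:28805493-28805522, plus strand): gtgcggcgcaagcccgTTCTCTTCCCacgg
Rps18 (chr17:33955651-33955680, minus strand): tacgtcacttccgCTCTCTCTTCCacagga
Rps27l (chr9:66946071-66946100, plus strand): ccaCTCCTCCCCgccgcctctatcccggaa
Rps6 (chr4:86857353-86857382, minus strand): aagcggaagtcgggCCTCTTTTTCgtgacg
Rpl31 (chr1:39367836-39367865, plus strand): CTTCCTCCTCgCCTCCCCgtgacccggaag
Rpl35 (chr2:39005117-39005146, minus strand): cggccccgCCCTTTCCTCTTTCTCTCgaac
Rps25 (chr9:44407699-44407728, plus strand): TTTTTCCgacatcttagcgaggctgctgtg
Rps24 (chr14:24490663-24490692, plus strand): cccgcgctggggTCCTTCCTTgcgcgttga
A run of this kind was found in 39 of the 74 windows of members (52.7%) and in 29.2% of all 32851 windows of the table. Runs of at least 6 purines, the mirror measure, were in 7 of 74 (9.46%) against 32.4%. Windows of members without such a run include the following, and the annotated start need not be the start used in these cells.
Rpl26 (chr11:68901551-68901580, plus strand): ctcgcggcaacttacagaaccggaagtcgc
Rpl41 (chr10:128549154-128549183, minus strand): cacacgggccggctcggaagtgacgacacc
Rpl24 (chr16:55966260-55966289, plus strand): agaaagctgttgctaggaaacagactgggc
RefSeq promoters were matched for 62 of the 82 members, with several starts for some. In windows of 300 bases (250 before the start and 50 from it), the letters CCGGAAG, the core of an ETS-type site, were found on either strand in 26 of 74 windows (35.1%) against 8.86% of all windows. The letters CTTTCC were in 48.6% of member windows against 26.6%, CACGTG (an E-box, the motif of MYC) in 10.8% against 7.15%, and TATAAA in 9.46% against 13.6%; a match of CTTTCC can overlap one of CCGGAAG in the letters CC. A match is a description of the window and not of factor binding. The promoters of Rpl26, Rpl41 and Rps2, which moved in the comparisons below, are printed from 250 bases before the start to 30 bases after it, with CCGGAAG and CTTTCC (either strand) in capitals.
Rpl26 (chr11:68901316-68901595, plus strand): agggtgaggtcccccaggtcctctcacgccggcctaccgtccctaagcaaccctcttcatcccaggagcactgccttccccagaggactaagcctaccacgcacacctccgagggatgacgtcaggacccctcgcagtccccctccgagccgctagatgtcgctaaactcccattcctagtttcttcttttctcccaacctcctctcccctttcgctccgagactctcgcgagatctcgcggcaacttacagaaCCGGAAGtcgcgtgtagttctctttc
Rpl41 (chr10:128549139-128549418, minus strand): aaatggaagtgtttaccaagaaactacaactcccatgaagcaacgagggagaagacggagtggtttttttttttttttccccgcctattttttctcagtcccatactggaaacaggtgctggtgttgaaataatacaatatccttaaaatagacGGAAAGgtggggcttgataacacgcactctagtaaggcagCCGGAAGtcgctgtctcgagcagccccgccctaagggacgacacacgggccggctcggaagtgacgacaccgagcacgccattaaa
Rps2 (chr17:24719813-24720092, plus strand): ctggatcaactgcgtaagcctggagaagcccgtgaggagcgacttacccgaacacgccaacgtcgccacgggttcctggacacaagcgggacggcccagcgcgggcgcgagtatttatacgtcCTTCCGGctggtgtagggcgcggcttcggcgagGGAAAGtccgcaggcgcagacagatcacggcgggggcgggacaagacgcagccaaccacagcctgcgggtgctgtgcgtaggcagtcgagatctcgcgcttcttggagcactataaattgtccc

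The members took the largest share of the RNA in the day 5 on libraries. Together they held 12.9% and 15.6% of all counts there, and 10.7% and 11.96% at day 5 off. At day 14 the share was 9.78% and 11.6% with the vector on, and 10.7%, 11.7%, 12.2% and 10.7% with it off. Both day 5 on libraries thus lay above the other 8, which overlapped one another in all 3 groups.

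The mean for day 5 on was 14.2% ± 1.91 (SD, n = 2) and that for day 5 off 11.3% ± 0.893 (n = 2). For day 14 on it was 10.7% ± 1.27 (n = 2), and for day 14 off 11.3% ± 0.741 (n = 4). The exact Clopper-Pearson 95% interval was 9.77% to 9.80% in day 14 on replicate 1, the lowest library, and 15.6% to 15.6% in day 5 on replicate 2, the highest. It covers counting error only and is far narrower than the spread between replicates. As a sum over members chosen with results known, the share is given with no test.

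**Figure D1:**
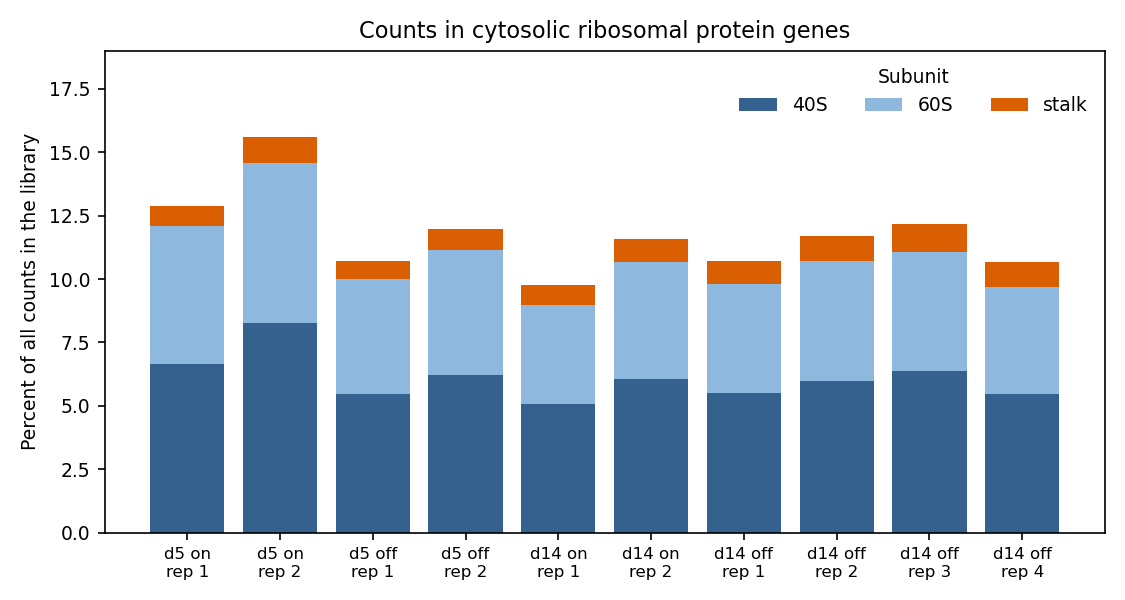
Percent of all counts in each library (y axis) that fell in members of the 40S subunit, the 60S subunit and the stalk, as stacked bars for the 10 libraries (x axis: group and replicate, d5 and d14 for days 5 and 14). The day 5 on libraries reach 12.9% and 15.6%, above the other 8.

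The subunits followed the same order. Small-subunit genes held 7.46% ± 1.139 of counts at day 5 on and 5.56% to 5.85% as means of the other groups, and large-subunit genes 5.87% ± 0.625 against 4.26% to 4.73%. Small-subunit counts were between 121% and 136% of large-subunit counts in every library, lowest in day 5 off replicate 1 and highest in day 14 off replicate 3. The 3 stalk genes differed: they held 0.998% ± 0.0694 in the day 14 off group, 0.925% ± 0.142 in day 5 on, 0.863% ± 0.0775 in day 14 on, and least, 0.752% ± 0.0665, in day 5 off.

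Genes at the ribosomal RNA loci took between 7.78% and 16.5% of counts, and day 5 on replicate 2, with 8.49%, was among the lowest. With these genes left out of the totals, the members' share became 15.95% ± 1.54 at day 5 on; with the vector off on day 5 it was 12.9% ± 0.619, and on day 14 it was 12.4% ± 1.31 on and 12.9% ± 0.290 off, so the order of day 5 on above the rest held. Named pseudogenes of the members added 1.05% to 1.70% of counts. These were highest in day 5 on replicate 2 as well.

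Gene by gene, 58 of the 79 tested members had both day 5 on libraries above all other 8. Day 5 on replicate 2 was the highest of the 10 libraries for 62 members and day 5 on replicate 1 for 10. Day 14 on replicate 1 was the lowest for 42. None of these counts was made over all tested genes, so no background is set beside them and they may not be particular to the members. Among the 21 members without both day 5 on libraries above the rest were the 3 stalk genes, Rpl10a, Rpl18, Rpl28, Rpl29, Rpl3, Rpl37a, Rpl7a, Rpl7l1, Rpl8, Rps10, Rps13, Rps14, Rps18, Rps2, Rps26, Rps27l and Rps9.

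Over the 10 libraries, the correlation (Pearson) of a member's log2 CPM with the mean of the other members had a median of 0.87 and exceeded 0.9 for 33 members. All points share the libraries' scaling, so it is a description. Rps25, a small-subunit protein, was the most typical at 0.98, and the least typical were Rplp2 at 0.0457, Rps2 at 0.087, Rpl18 at 0.092, Rpl8 at 0.17 and Rplp0 at 0.28. The genes outside the set whose pattern was most like the mean of the members were Ccdc84 (0.99), Ntpcr (0.99), Gm44510 (0.98), Taf1d (0.97) and Rps12-ps3 (0.96), again over 10 libraries. Genes typed as pseudogenes were left out of this search, and Rps12-ps3 is typed as protein-coding. Ccdc84 overlaps Rps25 on the opposite strand, and Gm44510 and Rps12-ps3 share 3′ end sequence of Rps12, so the counts of these 3 genes may hold reads of a member.

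At day 5, turning the vector off was compared with leaving it on after 5 days of doxycycline. Of the 79 members, 77 had a lower estimate off than on, with a median log2 change of -0.35 against -0.02 over all 15916 tested genes. No member passed the test (edgeR's quasi-likelihood test, Benjamini-Hochberg adjusted over all genes, threshold 0.05), where 0.484% of all genes did (0.371% higher, 0.113% lower). At an unadjusted p under 0.05 there were 49 members (14.9% of all genes), and DESeq2 called 4, among them Rpl26, Rpl34 and Rps24. In 69 members both off libraries lay below both on libraries (20.9% of all genes), and in none above (19.3%).

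**Figure D2:**
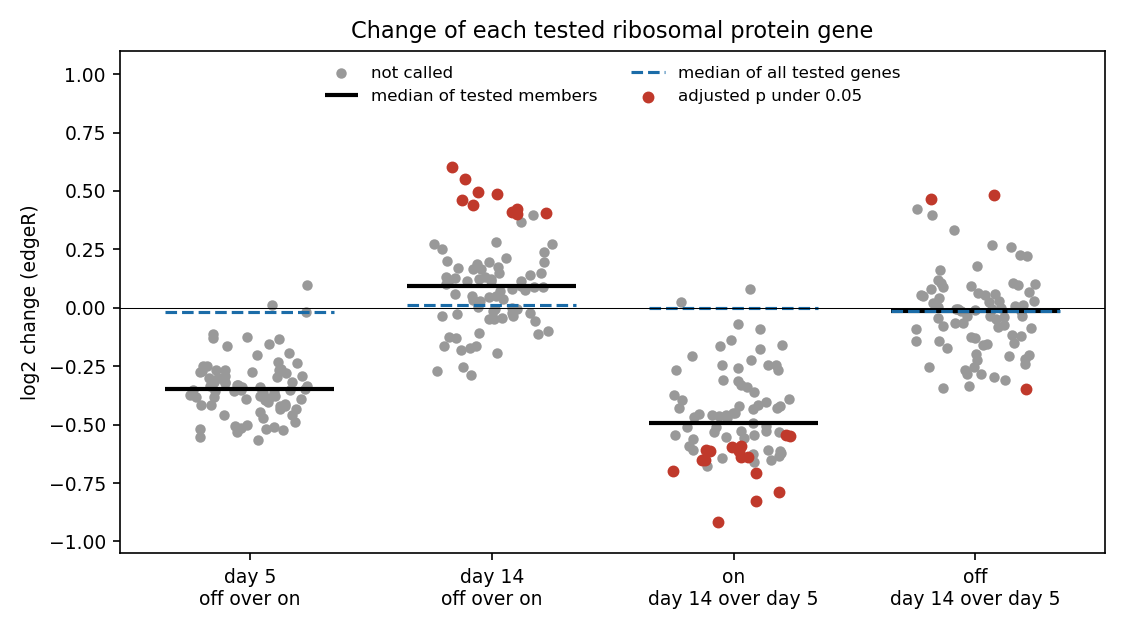
The log2 change (y axis, edgeR) of each of the 79 tested members in 4 comparisons (x axis); red points passed an adjusted p of 0.05, black bars are the medians of the members and dashed blue bars those of all tested genes. The medians are -0.35 at day 5 and 0.09 at day 14 for off over on, and -0.49 with the vector on and -0.01 with it off for day 14 over day 5.

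Rps24, a small-subunit protein mutated in Diamond-Blackfan anaemia, had the lowest estimate. Its level was 2454 and 2742 CPM off and 3760 and 3929 on, a log2 change of -0.57 ± 0.14 (SE; edgeR adjusted p = 0.106). Rpl34, of the large subunit, had the smallest adjusted p, 0.0887 by edgeR, at -0.52 ± 0.12. The groups did not overlap for Rps24, yet neither gene passed the threshold. The highest estimate was that of Rpl28, at 0.10 ± 0.14, with 440 and 477 CPM off against 409 and 448 on. Its groups overlapped.

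Without day 5 on replicate 2 the median became -0.21 and without day 5 on replicate 1 it became -0.47, with 2 members then called. Of 12 lists of lineage, sort and proliferation markers, 6 had summed CPM that did not overlap between off and on at day 5. Of all genes taken singly, 19.3% lay higher and 20.9% lower off without overlap. Proliferation markers (922 to 973 off, 675 to 868 on) and mast cell markers (39.8 to 53.0 off, 9.39 to 22.4 on) were higher off. Neutrophil (487 to 529 off, 815 to 1577 on), dendritic cell (109 to 123 off, 163 to 210 on) and B cell markers (6.81 to 7.39 off, 7.58 to 8.21 on) were lower off. The sum of Kit, a marker of the sort, and Cd34, which was not, was lower off as well (59.2 to 83.3 off, 104 to 140 on). The part of these marker lists in the members' values was not tested.

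In cells with the vector on, 16 of the 79 members were lower at day 14 than at day 5 and none higher, where 2.32% of all genes were called and 1.36% were lower. The days are separate harvests. In every comparison between days, on or off, harvest day and anything else that differed with it cannot be told apart. The median log2 change was -0.49 against 0.00 over all genes, 77 members had a negative estimate, and 61 had an unadjusted p under 0.05 (20.4% of all genes). In 72 members both day 14 libraries lay below both day 5 libraries (23.1% of all genes). The called genes were 4 of the 31 small-subunit members, 12 of the 45 large-subunit members and none of the 3 stalk genes.

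Rpl26, a large-subunit protein beside the exit tunnel that is also known for binding p53 mRNA, changed most. It had 1097 and 1003 CPM at day 5 and 548 and 564 at day 14 with the vector on. The groups were far apart, and the log2 change was -0.92 ± 0.12 (edgeR adjusted p = 0.0134). In the off groups it stood at 714 and 759 CPM at day 5 and at 542, 606, 578 and 593 at day 14, so the day 5 off libraries lay between the 2 on groups and those of day 14 off close to day 14 on.

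Rps6, the S6 kinase substrate of the small subunit, had 519 and 562 CPM on day 5 with the vector on, then 347 and 359 on day 14, a log2 change of -0.61 ± 0.12 (edgeR adjusted p = 0.0375). It was lower in each day 14 library than in each day 5 library with the vector on. Rps25, the small-subunit protein needed by some viral internal ribosome entry sites, had 2688 and 3035 CPM and then 1809 and 1973, a fall by 0.60 ± 0.13 on the log2 scale.

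Among large-subunit genes, Rpl31 had 821 and 1064 CPM at day 5 with the vector on, then 505 and 586 at day 14. Rpl35 had 759 and 685 CPM and then 432 and 459. Neither pair of groups overlapped, and the log2 changes were -0.79 ± 0.16 (edgeR adjusted p = 0.0385) and -0.70 ± 0.14 (0.0384). Rpl24, known from the Belly spot and tail mouse mutant, had 684 and 750 CPM and then 451 and 485, which also left a gap between the days.

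Rpl23, known for binding MDM2, fell by 0.65 ± 0.13, Rpl37 by 0.64 ± 0.13 and Rpl41, the shortest ribosomal protein, by 0.59 ± 0.12 on the log2 scale. Other called members were Rpl14, Rpl21, Rpl34, Rpl36a, Rpl39 and Rps20, with log2 changes between -0.83 and -0.54. Rpl39 and Rpl36a lie on the X chromosome; the other X-linked members, Rpl10 (-0.26 ± 0.12) and Rps4x (-0.61 ± 0.17), did not pass. Of the 21 Diamond-Blackfan anaemia genes on the list used here, all members, 4 fell (Rpl26, Rpl31, Rpl35 and Rps20), with a median of -0.54 over the list. This share was like that of all 79 tested members, where 1.36% of all genes were lower. The median of the list was 0.09 for off over on at day 14. None of the 21 was called at day 5 (median -0.35) and 1 over time with the vector off (Rpl26, median -0.03), where 0.484% and 17.0% of all genes were called.

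**Figure D3:**
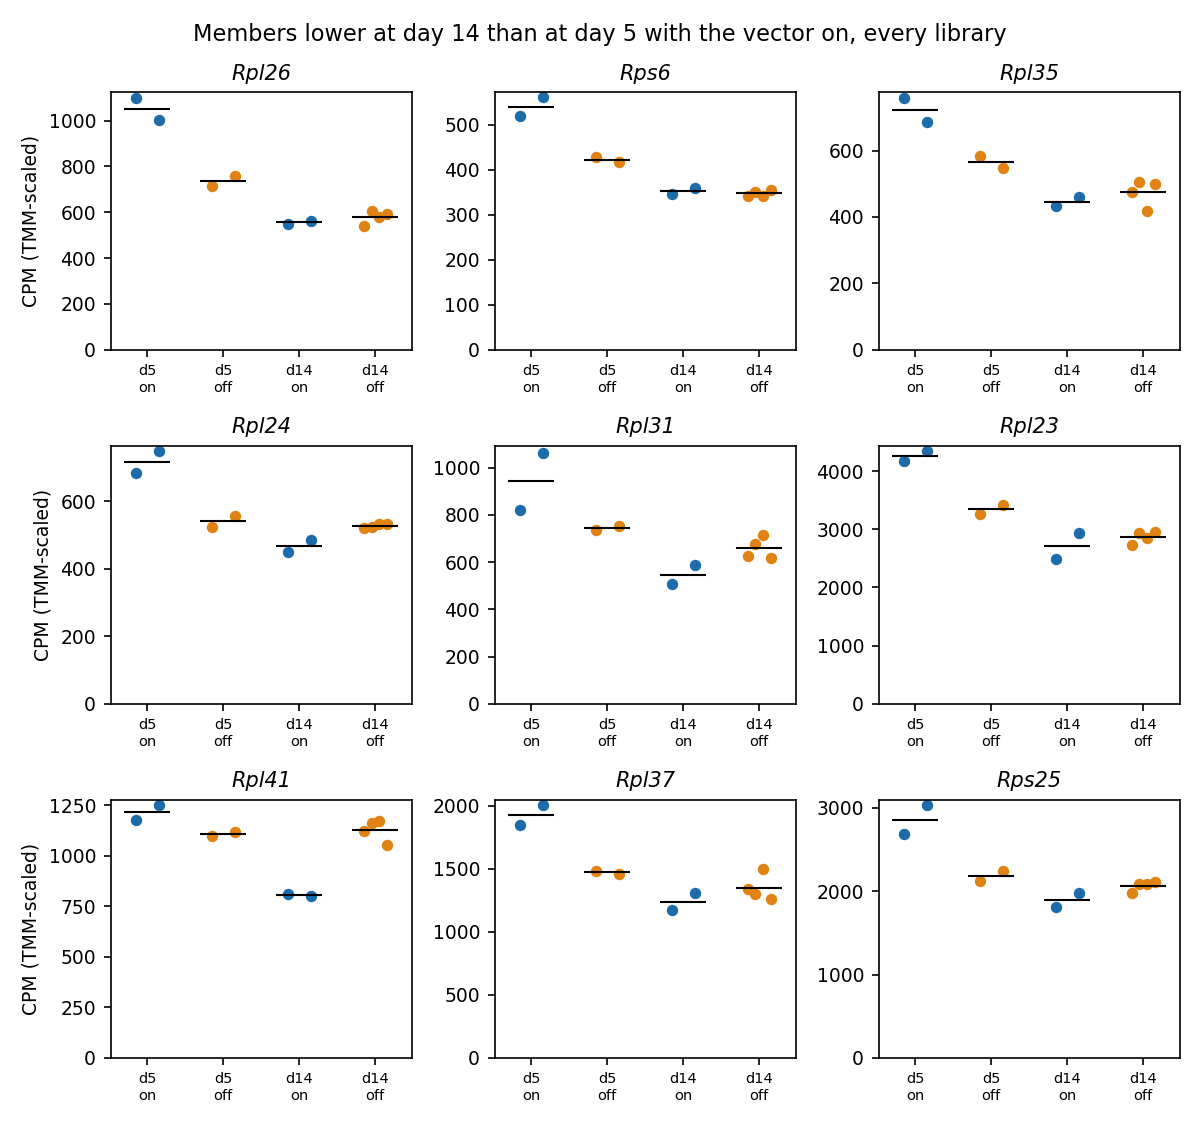
TMM-scaled CPM (y axis, from 0) of 9 members called lower for day 14 over day 5 with the vector on, in every library of the 4 groups (x axis; blue on, orange off); black bars are group means. In Rpl26 the day 5 on libraries, at 1097 and 1003, stand above all others.

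Of the stalk genes, Rplp2 had 3451 and 4728 CPM at day 5 with the vector on, then 4138 and 4512 at day 14, and Rplp0 had 1010 and 1336 and then 1034 and 1202. The groups overlapped in both, with log2 changes of 0.08 ± 0.16 and -0.07 ± 0.16. Rplp1 had 4151 and 4194 CPM and then 3000 and 3202, without overlap, and its change of -0.43 ± 0.13 had an edgeR adjusted p of 0.0958. Rpl18, at 0.02 ± 0.12, was the only large-subunit member with a positive estimate.

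The number of calls depended strongly on the fit. It was 6 with RLE scaling, 36 with DESeq2, 42 with the replicate number as a block and 0 when only the 4 on libraries entered the fit. It was 0 without day 14 on replicate 1 or without day 14 on replicate 2, 4 without day 5 on replicate 2, 1 or 2 without any single off library, and 1 (Rpl26) without day 5 on replicate 2 and day 14 on replicate 1 together, while the median stayed between -0.58 and -0.25 in these library omissions. In the on groups 5 of the 12 marker lists did not overlap between days. Of all genes taken singly, 20.6% lay higher and 23.1% lower at day 14 without overlap. From day 5 to day 14, proliferation markers went from 675 to 868 down to 484 to 550 CPM and B cell markers from 7.58 to 8.21 down to 5.24 to 6.84. Kit and Cd34 went from 104 to 140 up to 156 to 181, Itgam from 3.08 to 6.74 up to 8.76 to 21.9, and megakaryocyte markers from 24.1 to 33.4 up to 36.7 to 54.8. Their part in the fall of the members was not tested.

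At day 14 the comparison of off with on asks what 14 days without the vector do. Among all genes 31.8% were called, 16.9% higher and 14.9% lower. Of the 79 members, 10 were higher off than on and none lower, a share below that background. The median log2 change was 0.09 (0.01 over all genes), the estimates ran from -0.29 to 0.60, and 53 were positive. In 24 members all 4 off libraries lay above both on libraries and in 5 below (27.9% and 24.6% of all genes).

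Of the small subunit, Rps2, a protein at the entry of the mRNA channel, changed most. It had 505, 486, 529 and 458 CPM off and 325 and 328 on. The groups did not overlap, and the log2 change was 0.60 ± 0.13 (edgeR adjusted p = 0.00615). Rps18 had 1880, 1991, 2139 and 1787 CPM off and 1375 and 1574 on, a change of 0.40 ± 0.13 (edgeR adjusted p = 0.0338). All 4 off libraries were higher in both genes.

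Rps27l, a p53-responsive paralog of Rps27, had 162, 148, 121 and 130 CPM off and 94.8 and 96.3 on, a log2 change of 0.55 ± 0.15 (edgeR adjusted p = 0.0164). Its partner Rps27 had 864, 788, 1040 and 810 CPM off and 951 and 1033 on, with overlap, and a change of -0.18 ± 0.13. In tags, Rps27l was 11.6% to 18.8% of Rps27 at day 14 off but 9.97% and 9.32% with the vector on. On day 5 it was 17.7% and 18.8% with the vector off, then 15.2% and 11.7% with it on. The day 14 on libraries were therefore the lowest of the 10 in this ratio, which was not tested. In its last 200 bases Rps27 shared 100% of stretches of 50 bases with other annotated genes (6 genes), so its counts are uncertain.

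Of the large subunit, Rpl41 had 1124, 1164, 1171 and 1054 CPM off and 810 and 802 on. Its groups lay far apart, at a log2 change of 0.49 ± 0.11 (edgeR adjusted p = 0.00585). Rpl14 had 492, 531, 492 and 513 CPM off and 384 and 373 on, a change of 0.42 ± 0.11 (edgeR adjusted p = 0.0126). Rpl37a had 1773, 1967, 2185 and 1708 CPM off and 1289 and 1524 on, a change of 0.44 ± 0.14 (edgeR adjusted p = 0.0302). These groups did not overlap either. Rpl7a, with 1177, 1203, 1267 and 986 CPM off and 823 and 928 on, lay just inside the threshold at 0.40 ± 0.14 (edgeR adjusted p = 0.0495).

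Rpl22l1, the paralog of Rpl22 known to be held down by it, had 301, 279, 266 and 262 CPM off and 190 and 227 on. The change was 0.41 ± 0.13 (edgeR adjusted p = 0.0341). Rpl22 itself had 781, 818, 741 and 841 CPM off and 779 and 772 on, with overlap, and a change of 0.04 ± 0.11. Rpl22l1 overlaps the antisense gene Gm33051, whose mean count was 88.9% of its own, and the strand setting of the counting is not given in the sources used here, so the reads of the pair cannot be told apart. Rpl7l1, the paralog of Rpl7, was at 0.40 ± 0.14 and missed the threshold (edgeR adjusted p = 0.0561), and Rpl7 was at 0.11 ± 0.13.

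**Figure D4:**
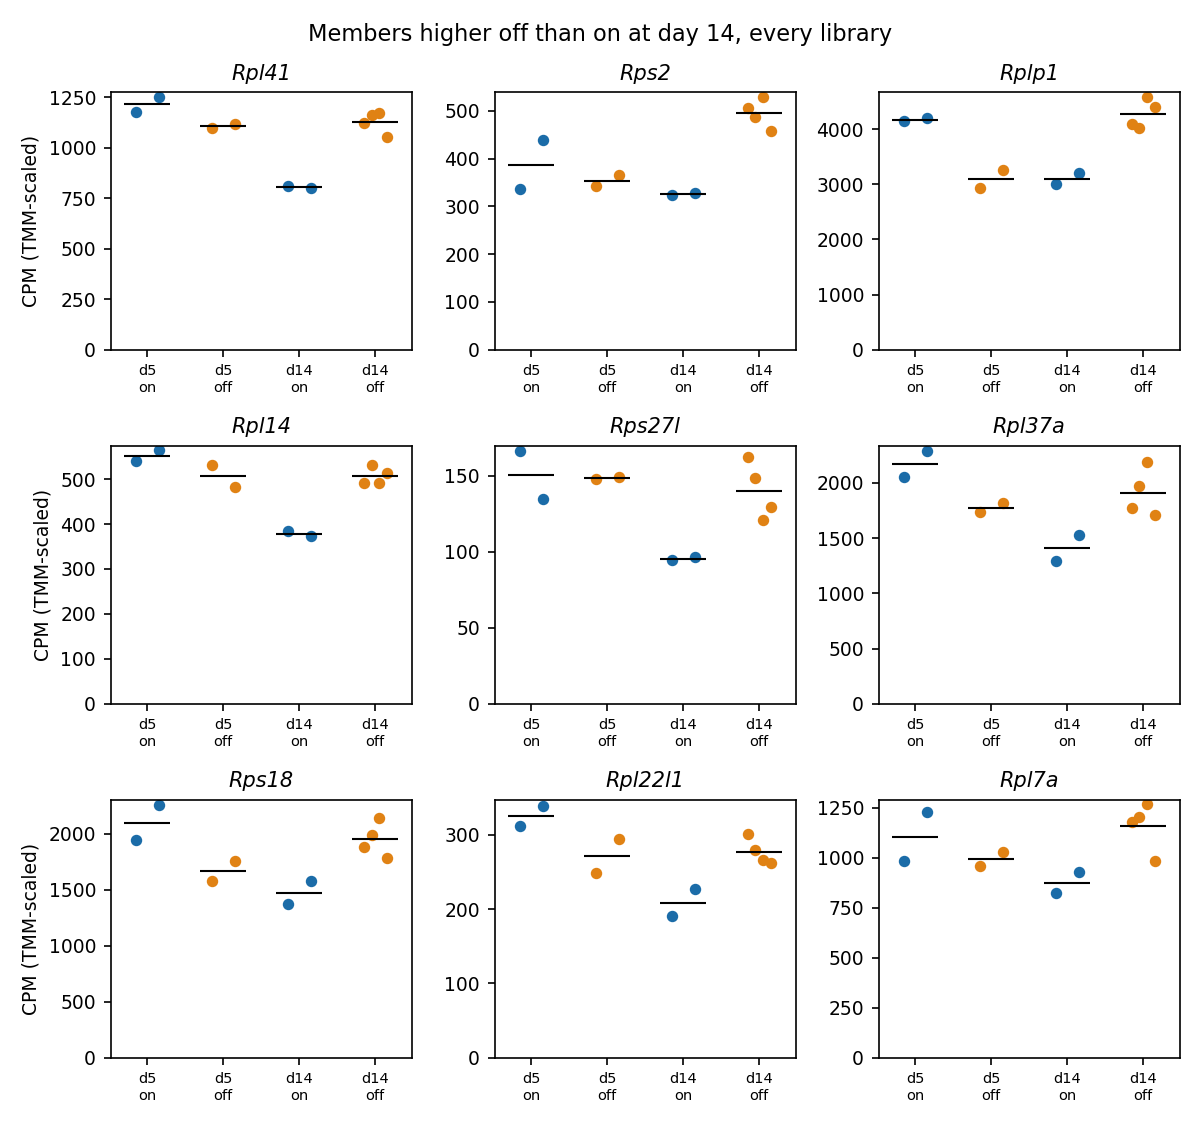
TMM-scaled CPM (y axis, from 0) of 9 members called higher off than on at day 14, in every library of the 4 groups (x axis; blue on, orange off); black bars are group means. In Rps2 the day 14 off libraries, at 458 to 529, stand above the other 6.

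In the stalk, Rplp1 had 4088, 4014, 4588 and 4391 CPM at day 14 off and 3000 and 3202 on. The off libraries were all higher, and the log2 change was 0.46 ± 0.11 (edgeR adjusted p = 0.0105). Rplp0 and Rplp2, its partners, were at 0.14 ± 0.14 and 0.05 ± 0.14. The lowest estimate of the members was that of Rps24 (-0.29 ± 0.12, edgeR adjusted p = 0.0874), which did not pass.

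All 10 calls were lost without day 14 on replicate 1, where the median became -0.04, and 3 (Rps2 and Rplp1 among them) were left without day 14 on replicate 2; 4 were left without day 14 off replicate 1 or replicate 2, and 6 without day 5 off replicate 1. At day 14, 8 of the 12 marker lists did not overlap between off and on. Of all genes taken singly, 27.9% lay higher and 24.6% lower off without overlap. Proliferation markers (1259 to 1516 CPM off, 484 to 550 on) and erythroid markers (2539 to 3292 off, 811 to 1487 on) were higher off. Neutrophil (654 to 1042 off, 1051 to 1717 on), monocyte (309 to 483 off, 516 to 1146 on), granulocyte progenitor (13.6 to 85.4 off, 87.0 to 284 on) and dendritic cell markers (69.5 to 81.3 off, 197 to 244 on), Kit and Cd34 (32.6 to 40.4 off, 156 to 181 on) and Itgam (2.07 to 3.73 off, 8.76 to 21.9 on) were lower off. The part of these markers in the day 14 results was not tested.

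With the vector off, 3 members were called between day 5 and day 14, 2 higher and 1 lower, where 17.0% of all genes were called (10.1% higher, 6.94% lower). The median log2 change was -0.01 for the members and -0.01 for all genes. Rplp1 had 2931 and 3256 CPM at day 5 off, below all 4 day 14 off libraries, and rose by 0.46 ± 0.11 (edgeR adjusted p = 0.0193). Rps2 had 343 and 365 CPM at day 5 off, again below all 4, and rose by 0.48 ± 0.13 (edgeR adjusted p = 0.0308). Rpl26 was above them, and its change was -0.35 ± 0.11 (edgeR adjusted p = 0.0467).

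The other stalk genes had estimates of 0.40 ± 0.14 (Rplp2) and 0.33 ± 0.14 (Rplp0), and in all 3 stalk genes the 4 day 14 libraries lay above both day 5 libraries, where 24.2% of all genes did so. Rpl8, of the large subunit, was at 0.42 ± 0.14 (edgeR adjusted p = 0.0587). The number of calls was 0 without either day 5 off library, without day 14 off replicate 1 or without day 14 off replicate 4, 1 without day 14 off replicate 2, day 14 off replicate 3 or day 14 on replicate 1, and 7 without either day 5 on library. In the off groups 6 of the 12 marker lists did not overlap between days. Of all genes taken singly, 24.2% lay higher and 21.6% lower at day 14 without overlap. From day 5 to day 14, erythroid markers went from 741 to 1638 up to 2539 to 3292 CPM, proliferation markers from 922 to 973 up to 1259 to 1516 and neutrophil markers from 487 to 529 up to 654 to 1042. Granulocyte progenitor markers went from 88.2 to 325 down to 13.6 to 85.4, dendritic cell markers from 109 to 123 down to 69.5 to 81.3, and Kit and Cd34 from 59.2 to 83.3 down to 32.6 to 40.4. Their part in these calls was not tested.

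The off effect at day 14 was then set against that at day 5 by the interaction of day and doxycycline. All 79 members had a positive difference, with a median of 0.43 (0.03 over all genes), and 48 had an unadjusted p under 0.05 (23.1% of all genes). Only Rplp1 passed, at 0.89 ± 0.17 (edgeR adjusted p = 0.0284), where 3.06% of all genes did (1.65% higher, 1.41% lower). Its off libraries were below the on libraries at day 5 and above them at day 14. Next came Rpl41 at 0.62 ± 0.16 (edgeR adjusted p = 0.0599) and Rps18 at 0.73 ± 0.19 (edgeR adjusted p = 0.0636). The call was lost without day 14 off replicate 1, 2 or 4, without either day 14 on library and without day 5 off replicate 1 (edgeR adjusted p 0.0618 to 0.174), and 10 members were called without day 5 on replicate 1, as many as with the replicate number as a block. Calls over all genes rose with the block as well, as given in the last section, so that rise was not confined to the members. These 4 comparisons share their groups and are not independent of each other.

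Averaged over both days, 2 members were lower off than on, where 19.8% of all genes were called (9.87% higher, 9.94% lower), and 10 had an unadjusted p under 0.05 (34.8% of all genes). Rps24 had 2072, 2225, 2081 and 2156 CPM at day 14 off against 2325 and 2890 with the vector on, in the same direction as at day 5, and its change over both days was -0.41 ± 0.11 (edgeR adjusted p = 0.0223). Its off libraries lay below the on libraries of the same day. Neither of the 2 calls was left without day 14 on replicate 2 or without day 5 off replicate 2, and with day 14 on replicate 1 or day 14 off replicate 3 left out there were 4.

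The rest of the pathway was read from lists of genes, against which the members' own changes can be set. At day 14, 39 of 65 tested genes of ribosome assembly were higher off than on and none lower, with a median log2 change of 0.57 against 0.09 for the members, where 16.9% of all genes were higher and 14.9% lower. Nolc1, a nucleolar scaffold, had 138, 145, 119 and 116 CPM off and 48.5 and 62.0 on, a change of 1.23 ± 0.17 (edgeR adjusted p = 0.000537). Nhp2, a core protein of box H/ACA particles, rose by 1.16 ± 0.15, and Gnl3 (nucleostemin) by 0.97 ± 0.14. The estimates of these 3 genes lay above that of every tested member. Without day 14 on replicate 1, 9 assembly genes were called higher and none lower (median 0.44), without day 14 on replicate 2 there were 26 (median 0.67), and these 3 genes passed under every alternative run.

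Initiation factors (14 of 32 higher, none lower, median 0.35), RNA polymerase I genes (8 of 20 higher, 1 lower, median 0.38) and snoRNA host genes (4 of 12 higher, none lower, median 0.29) are set against the same shares of all genes, and the snoRNA hosts were only a few genes above that background. Eif4ebp1, the repressor of cap binding that mTORC1 inactivates, rose by 1.40 ± 0.24, and Snhg5, a TOP-bearing snoRNA host, by 1.19 ± 0.15. Of the 11 elongation factors and other TOP mRNAs 3 were higher and none lower (median 0.11), again near the background, among them Npm1, a nucleolar chaperone, by 0.62 ± 0.14. Without day 14 on replicate 1 the calls were 5 initiation factors, no RNA polymerase I gene, 2 snoRNA hosts and no elongation or other TOP gene, Npm1 included, with medians of 0.31, 0.36, 0.13 and 0.02. The 5 ribosomal protein genes that the symbol rule leaves out (among them Rpsa, Fau, Rack1 and Rpl36al) had a median of 0.17 and none passed.

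Among 22 tested mTORC1 and TOP regulators, 1 was higher (Larp4) and 2 were lower at day 14, with a median of -0.02. Both shares lay below those of all genes, of which 16.9% were higher and 14.9% lower. Mycn, a MYC family factor, had 2.03, 5.71, 0.826 and 3.29 CPM off and 37.0 and 81.7 on, a change of -4.32 ± 0.54 (edgeR adjusted p = 0.000365). Mxd4, a MYC antagonist, was at -0.87 ± 0.22, and at -0.48 (edgeR adjusted p = 0.198) without day 14 on replicate 2. Mtor itself (-0.39 ± 0.22) and Larp1 (0.08 ± 0.18) did not pass.

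**Figure D5:**
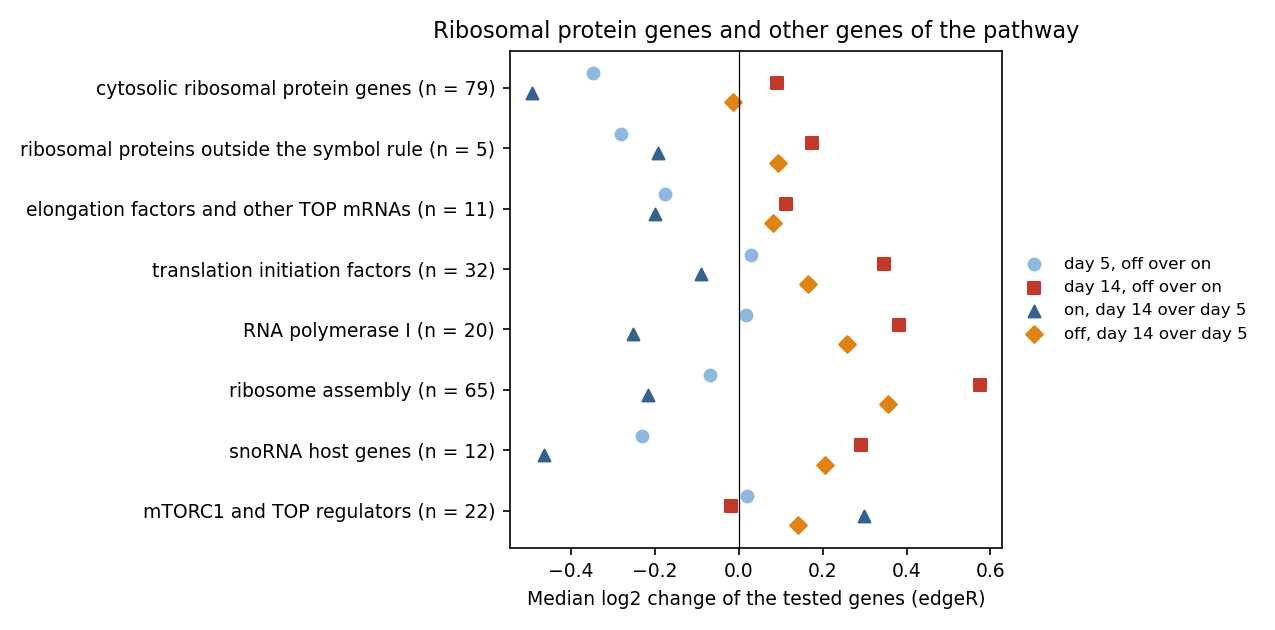
Median log2 change (x axis, edgeR) of the tested genes of each list (y axis, with the number tested) in 4 comparisons (symbols). Of the lists plotted, which leave out the Diamond-Blackfan subset of the members, the members have the lowest medians for day 5 off over on (-0.35) and for day 14 over day 5 with the vector on (-0.49), and ribosome assembly the highest for day 14 off over on (0.57).

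At day 5 no gene of these lists passed, and their medians ran from -0.28 (the 5 genes outside the symbol rule) to 0.03 (initiation factors), against -0.35 for the members. Over time with the vector on, 2 of 65 assembly genes were lower (1.36% of all genes), Gnl3 at -0.80 ± 0.16 and Nop56 (a core protein of box C/D particles) at -0.86 ± 0.18 on the log2 scale, and Rpl36al was lower at -0.68 ± 0.14. None of these 3 passed without day 14 on replicate 1 or without replicate 2 (edgeR adjusted p from 0.08 to 0.275). The list medians were -0.22 for assembly, -0.25 for RNA polymerase I and -0.47 for snoRNA hosts. Over time with the vector off, 23 of 65 assembly genes were higher and none lower (median 0.36), against 10.1% and 6.94% of all genes, with Rrp12 at 1.54 ± 0.25, and Rpsa rose by 0.46 ± 0.14. The assembly calls were 0 without day 5 off replicate 1, 6 without day 5 off replicate 2 and 9 to 15 without any single day 14 off library, with medians of 0.30 to 0.48. Rpsa did not pass without any single off library (adjusted p from 0.0714 to 0.344). In the test of the difference between days, 4 of 65 assembly genes passed, Nolc1, Nhp2, Gnl3 and Rrp12, all higher (median of the list 0.60), where 1.65% of all genes were higher. All 4 calls were lost without day 14 off replicate 1, 2 or 4 (edgeR adjusted p from 0.0604 to 0.111). Without day 5 on replicate 2 the 4 estimates were smaller. They were then 1.025 for Nolc1, 0.79 for Nhp2, 0.86 for Gnl3 and 1.23 for Rrp12, against 1.32, 0.96, 1.03 and 1.73 with all libraries. The omissions named here are not all of those in which calls were lost. Nhp2 also did not pass with RLE scaling (edgeR adjusted p = 0.056) or with limma voom (adjusted p = 0.0513). None of the 4 passed without day 14 on replicate 1 (adjusted p from 0.11 to 0.151) or without day 5 off replicate 1 (0.155 to 0.224).

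Shared sequence limits what single members can show. In the last 200 bases of their main transcript, 27 of the 82 members shared no stretch of 50 bases with another annotated gene, and 38 shared 50% or more of such stretches. Of the 10 members called at day 14, Rpl14, Rpl37a and Rps27l shared none and 6 shared 50% or more, Rps2 with 40 other genes. The remaining member, Rplp1, shared 45.0%, with 3 other genes. Rps24, which was lower over both days, shared none. Of the 16 that fell with the vector on, 6 shared none and 9 shared 50% or more, Rpl26 with 8 other genes. The way reads with several matches were counted is not given in the sources used here. Several members also overlap other genes whose counts were a large part of their own, such as Rpl13a with Gm45713 (96.4%), Rpl23a with Tlcd1 (94.3%), Rps25 with Ccdc84 (71.7%), Rpl35 with Wdr38 (70.3%) and Rpl24 with Gm28037 (50.6%), and these counts are uncertain.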

How the data were processed

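RNA of sorted cells was sequenced in 10 libraries (4 groups). The authors deposited raw counts per Ensembl gene, made from QuantSeq 3′ reads. Alignment with HISAT2 2.0.4 to mm10 and counting with featureCounts (Subread 2.0.0) are named in the submitters' processing notes, beside cutadapt 1.14, bcl2fastq 2.17.1.14, limma 3.48.3 and edgeR 3.34.0. For the annotation, the strand and multi-mapping, the setting is not given in the sources used here. Of the 52636 gene IDs, 52489 matched GENCODE M21, which gave symbols and types, and 147 did not. Totals were 9292644 to 14340624, so 3 counts of a total, the limit that a count of 0 allows, came to at most 0.323 CPM (counting error only).

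The analysis used edgeR 4.0.16 (R 4.3.3): filterByExpr (15916 genes kept), TMM scaling, a robust quasi-likelihood fit of the 4 group means over all 10 libraries, p-values adjusted by Benjamini-Hochberg across the whole tested table, and a threshold of 0.05. The comparison over both days used day and doxycycline as terms. Standard errors come from the log2 change and the F statistic. CPM values are TMM-scaled, except those of Dnmt3a, which were scaled by the library total alone, and log2 CPM used a prior count of 2. The fits were tested on simulated data. Alternatives were RLE scaling, other filters, DESeq2 1.42.0, limma voom (limma 3.58.1), a replicate block, fits of only the compared groups, counts without ribosomal RNA locus genes or with named pseudogenes, and omission of each library; omission of 2 libraries together was added after the data were seen. Where 1 library remained in a group, its spread was taken from the other groups.

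The members and lists were chosen with earlier results of these data known. The rule for named members takes up to 10 called per direction by p, the highest and lowest change, the stalk genes, the paralog pairs, and Rpl3, Rpl10, Rpl39 and Rps4x. From other lists it takes genes of smallest p; Mtor, Larp1, Rpl8, Rpl18, Rpl34, the runners-up for the difference between days and the overlapping genes were named after their values were seen. Some genes that the rule names are not reported here. No libraries were duplicates. P-values measure the spread between these libraries, which may be technical. Sequences are from RefSeq (GRCm38.p6).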

Additional observations from a re-analysis of the deposited data

Results flagged for a closer look

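The effect of turning the vector off on Rplp1 differed between days: the log2 change at day 14 minus that at day 5 was 0.89 (edgeR adjusted p = 0.0284), lower off than on in both day 5 libraries and higher in all 4 day 14 libraries. In 41 sets of values, each over the 4 day 14 off libraries, a library far from the others was looked for, and 0 stood apart. The groups of 2 libraries were not examined in this way.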

How the results depend on the processing

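The number of members called depended on the tool, filter and libraries. At day 14 off over on (10 called) it was 5 with no low-count filter. At day 5 (0 called) DESeq2 called 4. For day 14 over day 5 with the vector on (16) it was 6 with RLE scaling, 36 with DESeq2 and 0 with only the groups compared. With the vector off (3) it was 5 with a filter at 5 CPM, 6 with DESeq2 and 10 with only the groups compared. For the difference between days (1) DESeq2 called 8. Over both days (2) it was 1 with no filter, 6 at 5 CPM and 7 with DESeq2. Calls over all genes also changed with the tool and filter, as given below, so these changes are not results about the members alone. The causes were not tested.

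Same-numbered libraries correlated at 0.0295 to 0.334 in their deviations from the group means, 10 of 12 pairs above 0.1. The 2 libraries of a group deviate by mirrored amounts, so these pairs are not independent, and the labels do not say what a number marks. Whether the numbers pair the libraries was not settled. With the replicate block the calls were 11, 0, 42, 3, 10 and 0 in the same order, and Rps27l, day 14 over day 5 off, turned to 0.062.

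Leaving out single libraries gave calls of 0 to 13 at day 14, 0 to 2 at day 5, 0 to 11 over time with the vector on, 0 to 7 with it off, 0 to 10 for the difference and 0 to 4 over both days. The medians ran from -0.036 to 0.19, -0.47 to -0.21, -0.58 to -0.35, -0.068 to 0.017, 0.28 to 0.53 and -0.20 to -0.024 in the same order. Without day 5 on replicate 2 and day 14 on replicate 1 together, the calls were 3, 0, 1, 9, 0 and 3, and the medians -0.041 at day 14, -0.22 at day 5, -0.25 with the vector on and 0.18 for the difference.

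The mean share of counts without ribosomal RNA locus genes was 12.9% (day 14 off), 12.4% (day 14 on) and 12.9% (day 5 off). With named pseudogenes added it was 12.5% in both off groups.

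Members that did not pass changed sign in some omissions. At day 14, off over on, omission of single libraries gave -0.21 to 0.097 for Rpl39, -0.076 to 0.21 for Rpl3, -0.054 to 0.27 for Rpl7 and -0.047 to 0.30 for Rps4x, and omission of both libraries named above gave -0.081, -0.058 and -0.052 for the last 3. At day 5 single omissions gave -0.31 to 0.000247 for Rpl3 and -0.50 to 0.0050 for Rplp2 (0.0043 with both left out). Over time with the vector on they gave -0.13 to 0.37 for Rplp2 (0.44 with both left out), -0.26 to 0.19 for Rplp0 (0.30) and -0.34 to -0.034 for Rpl3 (0.097). With the vector off they gave -0.099 to 0.16 for Rpl22l1, and over both days -0.035 to 0.22. For the difference they gave 0.052 to 0.37 for Rpl3 (-0.080) and 0.020 to 0.51 for Rplp2 (-0.055).

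Over all genes, calls at day 5 (77) became 455 with DESeq2, 992 with no filter, 225 with the block, and 0 with limma voom or only the groups compared. With the vector on (370) they became 1127, 1275, 1014 and 0 under DESeq2, no filter, the block and only the groups compared, and RLE scaling moved the split from 154 higher and 216 lower to 143 and 139. The difference between days (487) gave 1289, 1957 and 1521 under the first 3 of these, and over both days (3153) the block gave 1348. Groups of 2 libraries limit the precision of every comparison.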
